A study of Mus musculus with 18 samples.

Results

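The mitochondrial respiratory chain passes electrons from NADH and succinate to oxygen through complexes I to IV and uses the proton gradient made on the way to drive ATP synthase, complex V. Most of its subunits are encoded in the nucleus. The genes described here are all those in the expression table whose symbols match the mouse names of nuclear-encoded subunits, namely Nduf followed by a, b, c, s or v and a number, Sdha to Sdhd, Uqcr, Cox4 to Cox8 and Atp5. Pseudogene symbols ending in -ps or -rs were left out, which removed 3 symbols. This gave 84 genes of 43309 in the table: 37 of complex I, 4 of complex II, 8 of complex III, 18 of complex IV and 17 of complex V. No mitochondrially encoded gene is among the table's symbols, so the other subunits of these complexes were not analysed here. The assignment follows the names, and a few names mislead. Ndufa4 is counted under complex I by its name although its protein is known as a subunit of complex IV, Ndufa4l2 is its paralogue, Cox7a2l is a factor that joins complexes III and IV, and Atp5s and Atp5sl are not subunits of the enzyme. The rule also misses subunits with other names. Cyc1 of complex III is listed below with the electron carriers, and Ndufab1 of complex I with the complex I assembly factors.

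The cells were macrophages grown from mouse bone marrow (C57BL/6) for 7 days in medium with 10% serum and 10 ng/ml M-CSF, the growth factor that drives macrophage differentiation. They were then stimulated for 18 h, either with LPS at 100 ng/ml plus interferon gamma at 20 ng/ml, called M1, or with 20 ng/ml IL-4, called M2. The marrow came from wild-type mice (WT), from mice with a PGRN knockout, which lack progranulin, or from mice labelled as a myeloid knockout of 14-3-3ε, an adaptor protein encoded by Ywhae. The 6 combinations of genotype and stimulus had 3 libraries each, 18 in all, made from total RNA. There was no unstimulated group, so M1 and M2 cells can be compared only with each other. The gene driver of the myeloid knockout, the age and sex of the mice and whether the 3 libraries of a group came from separate animals are not given in the sources used here, so a p-value here speaks only of the spread among these libraries, which may be technical.

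Classically activated M1 macrophages are known for a turn towards glycolysis, a broken tricarboxylic acid (TCA) cycle and a build-up of succinate and itaconate. Itaconate, made by the enzyme encoded by Irg1, inhibits succinate dehydrogenase, which is complex II and also an enzyme of the TCA cycle. IL-4-stimulated M2 macrophages are known for oxidative metabolism supported by fatty acid oxidation. Subunit genes are mostly expressed in all tissues, but a few have paralogues used in muscle, testis or low oxygen, such as Cox6a2, Cox7a1 and Cox8b in muscle and heart, Cox6b2 in testis, and Ndufa4l2 and Cox4i2, which are known targets of hypoxia signalling.

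The deposited values, log2 of a scaled count plus 1, turned back into whole reads, which came to 5157638 in the shallowest library (WT M1 replicate 1) and 105315616 in the deepest (14-3-3ε knockout M1 replicate 1). Levels below are normalized counts, that is, reads scaled to a common library size. Each WT group held 1 library that stood apart: the share of reads from genes like ribosomal RNA (rRNA) was 1.61% in WT M1 replicate 2 and 12.4% in WT M2 replicate 3, and 0.0637% to 0.114% in the other 16. Results that compare with WT are also given without these 2 rRNA-high libraries. Grn, which encodes progranulin, read 313 ± 159 (SD, n = 3) in PGRN knockout M1 cells against 88266 ± 5446 in WT, and Ywhae read 5647 ± 520.2 in 14-3-3ε knockout M1 cells against 9305 ± 480.3, so its transcript was lowered and not lost. The 7 M1 markers summed to 15266 to 26394 in M1 libraries and to 143 to 304 in M2 libraries, and all libraries held macrophage markers (56531 to 479957 for the 7 of 8 listed genes in the table). They also held transcripts of 10 of 10 stromal markers such as Col1a1 and Acta2, whose summed level in M1 cells was 330069 to 564301 for WT, 292611 to 322475 for the PGRN knockout and 584931 to 736435 for the 14-3-3ε knockout. In M2 cells it was 387411 to 503933, 243040.0 to 292469 and 491561 to 636223 in the same order. The stromal sum was thus lower than in WT in the PGRN knockout under both stimuli and higher in the 14-3-3ε knockout M1 cells, with overlap between the 14-3-3ε knockout and WT in M2. Macrophage markers summed to 237434 to 388691 in WT, 406464 to 479957 in PGRN knockout and 121653 to 205618 in 14-3-3ε knockout M1 libraries, a sum carried by Lyz2 (172932 to 299713, 305368 to 359805 and 32601 to 123842 in the same order). Csf1r, the M-CSF receptor, read 12249 to 20722, 19313 to 31856 and 19942 to 23368. Fewer cells of a type and less RNA per cell cannot be told apart in such bulk samples.

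All but 3 of the 84 genes were measured well enough to test, and 79 had a mean of at least 50 normalized counts. The 3 left untested were the tissue-restricted isoforms Cox8b, with 1 read, and Cox8c and Cox7b2, with 0 of 503463075 reads over all libraries, where a count of 0 allows up to 3 reads by counting error alone. Together the 84 genes took 0.879% ± 0.15 (SD, n = 3) of reads in WT M1 and 0.986% ± 0.13 in WT M2, 0.740% ± 0.0072 and 0.810% ± 0.0048 in the PGRN knockout, and 0.747% ± 0.022 and 0.891% ± 0.031 in the 14-3-3ε knockout. Per kilobase of transcript, averaged over the 6 groups, the highest level of each complex was 9496 normalized counts for Atp5b, the catalytic beta subunit of ATP synthase, 8420.0 for Cox6b1 of complex IV, 5552 for Uqcrh, the hinge protein of complex III, and 2594 for Sdhb, the iron-sulfur subunit of complex II. Under complex I Ndufa4, which belongs there by name only, was highest at 4359, followed by Ndufa3 at 3745. Cox4i1, the ubiquitous isoform of a complex IV subunit, stood close to Cox6b1 at 8383 per kilobase, and its hypoxia-linked paralogue Cox4i2 at 168. The lowest tested levels were 35.4 for Atp5s and 54.7 for Cox6b2.

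M1 and M2 macrophages of each genotype were compared first, to see which subunits follow the stimulus. The alpha and beta subunits of ATP synthase, the catalytic Sdha of complex II and the core subunit Ndufs1 of complex I fell in M1 cells of every genotype, while Ndufa4l2, Cox4i2 and Cox5a rose. With the deposited scaling more members of complex I rose than fell in every genotype, but scaled by library totals complex I had 4 up and 5 down in WT, 5 up and 5 down in the PGRN knockout and 1 up and 5 down in the 14-3-3ε knockout. In WT cells 14 members rose and 11 fell in M1 relative to M2 among 81 tested (limma, Benjamini-Hochberg adjusted p under 0.05 over 21336 genes), which is 30.9% of the members against 38.9% of all genes tested (18.9% higher and 20.0% lower). In PGRN knockout cells 21 rose and 7 fell, 34.6% of the members against 37.5% of all genes (18.0% higher, 19.5% lower). In 14-3-3ε knockout cells 7 rose and 9 fell, 19.8% against 30.0% (15.6% higher, 14.4% lower). In each genotype the share of members called was below the share of all genes called. Since 79 of the members had a mean of at least 50, the closer background is that of the 12135 genes with such a mean. Of these 56.3% were called in WT (26.4% higher, 30.0% lower), 56.1% in the PGRN knockout (26.6%, 29.5%) and 45.9% in the 14-3-3ε knockout (23.0%, 22.8%). The median log2 difference of the members was 0.12, 0.16 and 0.06, and that of all genes -0.04, -0.04 and 0.03.

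By complex, 10 of 37 complex I members rose and 3 fell in WT cells, with a median of 0.20. Of the 15 complex IV members tested 2 rose and 1 fell (median 0.21), and of the 17 complex V members 1 rose and 4 fell (median -0.02). In complex III 2 of 8 fell and none rose by limma (1 higher and 4 lower at an unadjusted p under 0.05), and in complex II 1 of 4 rose and 1 fell. The split between rises and falls depends on the scaling: scaled by library totals, which moves the median of all genes to -0.20, -0.22 and -0.16, the counts became 6 up and 17 down in WT, 9 and 15 in the PGRN knockout and 2 and 18 in the 14-3-3ε knockout. Without the 2 rRNA-high libraries the WT counts were 33 up and 9 down, without WT M1 replicate 2 alone 38 and 10, and without WT M1 replicate 1, the shallowest library, 10 up and 16 down.

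**Figure D1:**
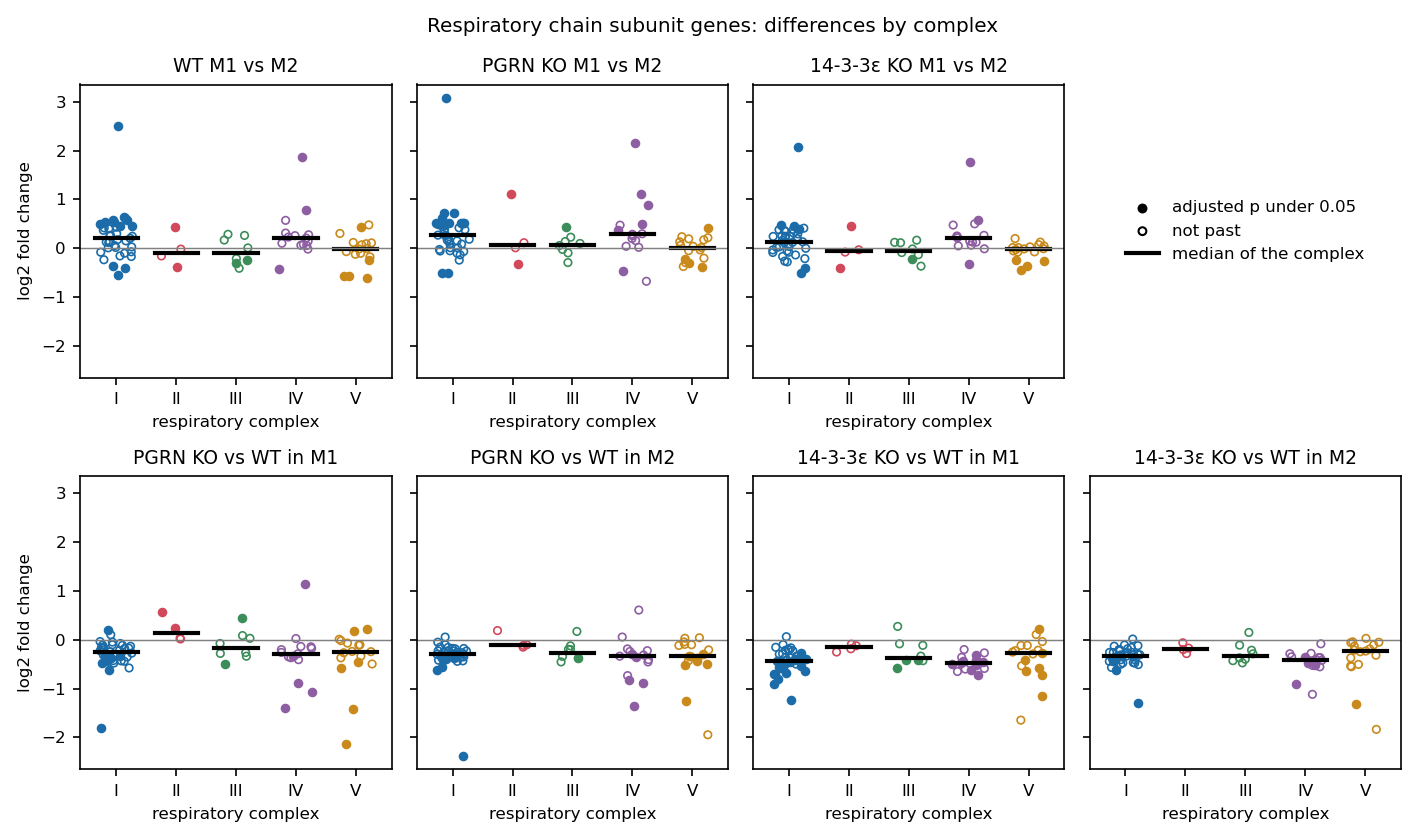
Log2 fold change of each tested member (points) by complex in the 7 comparisons, filled where the limma adjusted p was under 0.05, with the median of the complex as a bar. Complex medians lie between -0.10 and 0.28 for M1 against M2, and all but the complex II median in PGRN knockout M1 cells (0.13) lie below 0 for knockout against WT.

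The largest differences between the stimuli were those of 2 paralogues known from hypoxia. Ndufa4l2 (chr10:127514967-127517154 on GRCm38), whose protein is known to lower complex I activity, read 1766, 1439 and 1347 in WT M1 libraries and 322, 233 and 248 in WT M2 libraries. It read 393, 493 and 417 against 48.9, 70.1 and 36.8 in the PGRN knockout and 701, 692 and 1059 against 188, 155 and 234 in the 14-3-3ε knockout. M1 libraries were above all M2 libraries in every genotype, by 2.50 ± 0.22 (SE; adjusted p = 1.07e-07) on the log2 scale in WT, 5.67-fold, by 3.08 ± 0.22 (SE; adjusted p = 7.69e-09) in the PGRN knockout and by 2.07 ± 0.22 (SE; adjusted p = 1.34e-06) in the 14-3-3ε knockout in limma's test. Its paralogue Ndufa4 went the other way, with 2145, 1669 and 2033 in WT M1 and 2826, 2270.3 and 2400.5 in WT M2 (-0.36, adjusted p = 0.00659 by limma), -0.50 in the PGRN knockout and -0.40 in the 14-3-3ε knockout.

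Cox4i2 (chr2:152754173-152765037), the hypoxia-linked isoform of the complex IV subunit COX4, read 303, 213 and 226 in WT M1 and 90.5, 52.0 and 60.8 in WT M2. The groups did not overlap in WT or in either knockout, and the log2 difference was 1.87 ± 0.26 (SE; adjusted p = 1.67e-05) in WT, 2.16 ± 0.26 (SE; adjusted p = 3.45e-06) in the PGRN knockout and 1.76 ± 0.26 (SE; adjusted p = 4.3e-05) in the 14-3-3ε knockout by limma. The ubiquitous isoform Cox4i1 read 9944, 5553 and 7049.6 in WT M1 and 8085, 6291 and 6837 in WT M2, overlapping groups with a log2 difference of 0.05 ± 0.14 (SE; limma adjusted p = 0.808), or -0.12 scaled by library totals. Even in WT M1 cells Cox4i2 therefore stood far below Cox4i1, per kilobase as well as in normalized counts.

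Cox5a (chr9:57521274-57532426), a ubiquitous subunit of complex IV, rose in all 3 genotypes. It read 7719, 4105 and 5041 in WT M1 and 3602, 2772 and 3165 in WT M2, 4794, 4923 and 5072 and 2667, 2644 and 2713 in the PGRN knockout, and 3907, 3474.5 and 3278 and 2273, 2536 and 2272 in the 14-3-3ε knockout. All M1 libraries were above the M2 libraries of their genotype, by 0.78 ± 0.16 (SE; adjusted p = 0.000809), 0.88 ± 0.16 (SE; adjusted p = 0.000271) and 0.59 ± 0.16 (SE; adjusted p = 0.00903) on the log2 scale by limma, and in the 14-3-3ε knockout the difference was 0.37 (adjusted p = 0.0843) when scaled by library totals. Cox5b passed the threshold in the PGRN knockout (0.50, adjusted p = 0.00619) and not in WT (0.31) or the 14-3-3ε knockout (0.15). Scaled by library totals it passed in none, at 0.28, 0.14 and -0.08 in that order. The difference between genotypes did not pass for any member but Sdhb, below.

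Within complex I the rises were spread over its arms. Ndufc2 and Ndufa6, accessory subunits of the membrane and matrix arms, rose in all 3 genotypes, Ndufc2 by 0.64, 0.73 and 0.48 and Ndufa6 by 0.63, 0.62 and 0.46 in WT, PGRN knockout and 14-3-3ε knockout cells (adjusted p of 0.000479 to 0.0146 for the first and 0.000533 to 0.00873 for the second). Ndufs3, a core subunit of the part that binds ubiquinone, rose by 0.54, 0.72 and 0.39 (limma adjusted p = 0.00384, 0.00036 and 0.037). In the 14-3-3ε knockout these 3 rises did not pass when scaled by library totals. Ndufs1, the large iron-sulfur subunit of the NADH-oxidizing tip, read 1249, 1282 and 1399 in WT M1 and 1927, 1874 and 1967 in WT M2, with no overlap. It fell by 0.55, 0.51 and 0.51 on the log2 scale in the 3 genotypes (limma adjusted p = 3.17e-06, 8.85e-06 and 1.12e-05), under every alternative run.

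The 4 subunits of complex II did not move together. Sdha, the flavoprotein that oxidizes succinate, read 4259, 4227 and 4261 in WT M1 and 5713, 5304 and 5568 in WT M2, 5098, 4689 and 5301 and 6428, 5993 and 6460.2 in the PGRN knockout, and 4196, 4052 and 3732 and 5399, 5332 and 5146 in the 14-3-3ε knockout. Each M1 library was below each M2 library of its genotype, with log2 differences of -0.38 ± 0.07 (SE; adjusted p = 0.000184), -0.32 ± 0.07 (SE; adjusted p = 0.000781) and -0.41 ± 0.07 (SE; adjusted p = 0.000116) in limma's test. Sdhb, its iron-sulfur partner, was higher in M1: by 0.43 ± 0.10 (SE; adjusted p = 0.00321) in WT, 1.12 ± 0.10 (SE; adjusted p = 1.83e-07) in the PGRN knockout and 0.46 ± 0.10 (SE; adjusted p = 0.00236) in the 14-3-3ε knockout. Scaled by library totals, the WT and 14-3-3ε knockout differences did not pass (0.26, adjusted p = 0.0778, and 0.24, adjusted p = 0.111, by limma), while the PGRN knockout's did (0.90). The membrane anchors Sdhc and Sdhd passed the threshold in none of the 7 comparisons with the deposited scaling, with log2 differences between M1 and M2 of -0.16, 0.01 and -0.08 for Sdhc and -0.02, 0.11 and -0.03 for Sdhd. Scaled by library totals Sdhc was lower in M1 in all 3 genotypes (-0.33, -0.21 and -0.30; limma adjusted p = 0.00152, 0.0314 and 0.00406) and Sdhd in the 14-3-3ε knockout (-0.26; adjusted p = 0.0249).

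In complex V the transcripts of both subunits that form the catalytic head fell. Atp5b (chr10:128083273-128090391) read 13262, 14496 and 15751 in WT M1 libraries and 21740.0, 21083 and 21365 in WT M2 libraries, a difference of -0.56 ± 0.07 (SE; adjusted p = 4.98e-06) on the log2 scale by limma with no overlap. Atp5a1, which encodes the alpha subunit that forms the ring of the head with it, fell by 0.61, 0.38 and 0.45 in the 3 genotypes (limma adjusted p = 5.43e-07, 0.000108 and 2.2e-05). Atp5b fell by 0.23 and 0.24 in the knockouts (limma adjusted p = 0.0157 and 0.013). Of the 3 genes for the c subunit of the rotor, which encode the same mature protein, Atp5g1 fell in all genotypes (-0.58, -0.31 and -0.37; limma adjusted p = 6.51e-05, 0.0117 and 0.00454), Atp5g3 in WT and the 14-3-3ε knockout (-0.25 and -0.26), and Atp5g2 in none by limma. Counted without near copies, which matter for Atp5g2 below, Atp5g3 was the highest of the 3, at 4285, 3129.7 and 3603 in WT M1, against 1565, 1340.2 and 1521 for Atp5g1. Sdha, Ndufs1, Atp5a1 and Atp5g1, which fell, are the 4 longest members, at 2900, 2625.5, 2572.5 and 2675.5 bases. Atp5b, which also fell, is not among them. Length here is the median over a gene's annotated coding transcripts and need not be that of the transcript expressed. Atp5g1, for example, has a coding stretch of 408 bases. The median difference of the 4 longest was -0.57, -0.35 and -0.43 in WT, PGRN knockout and 14-3-3ε knockout cells. For 3458 other genes of 2500 to 4000 bases it was -0.09, -0.08 and -0.03.

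**Figure D2:**
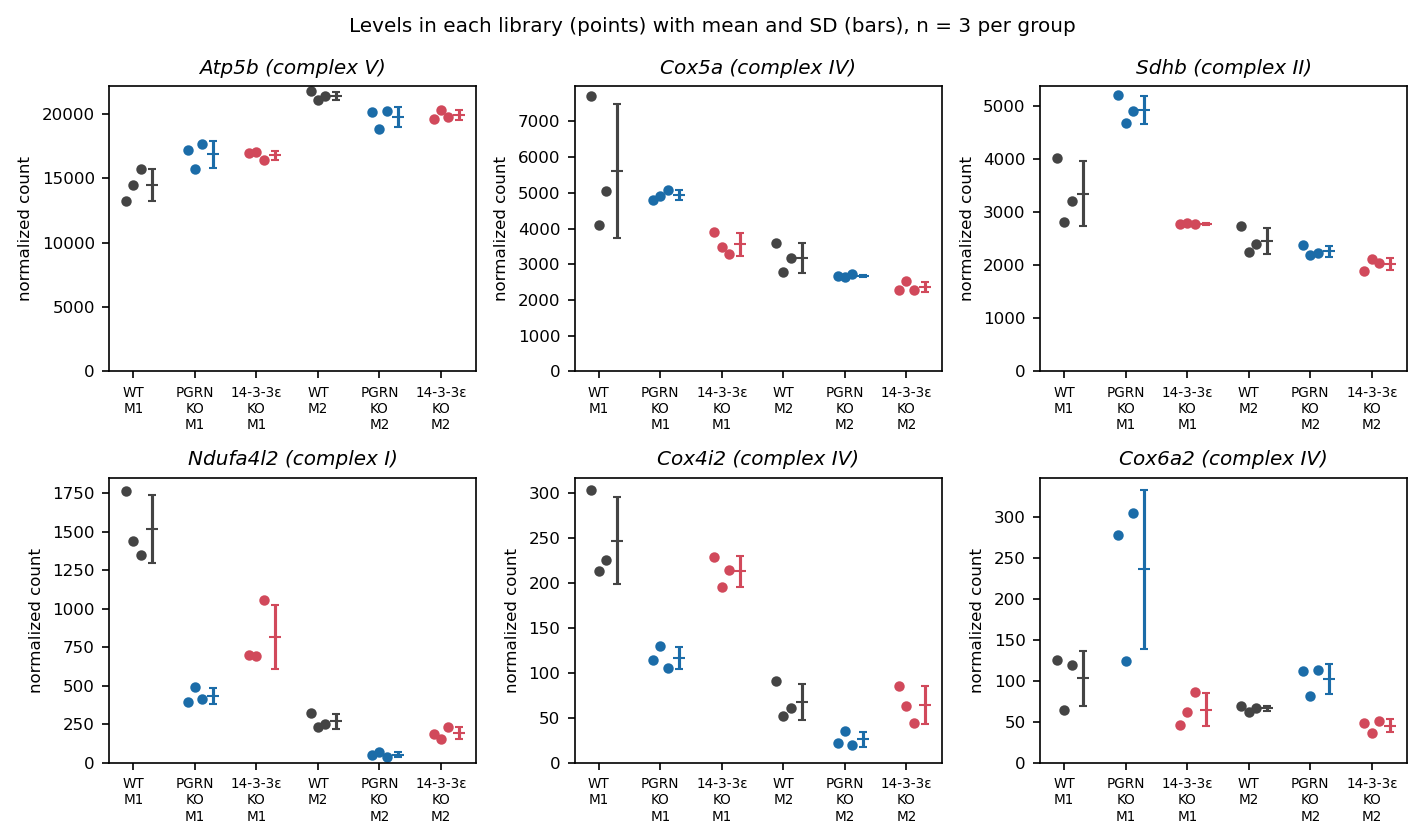
Normalized counts of 6 members in each library (points) with the mean and SD of the 3 libraries (bars) in the 6 groups, each panel with its own linear axis from 0. Atp5b is lower in all M1 than in all M2 libraries of the same genotype, Ndufa4l2 and Cox4i2 are lowest in the 3 PGRN knockout M2 libraries, and Sdhb is highest in the 3 PGRN knockout M1 libraries.

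The PGRN knockout was compared with WT under each stimulus, to see which members depend on progranulin. In M1 cells 7 members rose and 16 fell (28.4% of members, against 25.3% of all genes tested, 14.2% higher and 11.1% lower; median -0.24 against 0.01 for all genes). In M2 cells 0 rose and 19 fell by limma (23.5% against 19.4%, 11.1% higher and 8.30% lower; median -0.30 against 0), with 1 higher and 47 lower at an unadjusted p under 0.05 and 1 up and 30 down with voom weights. Among genes with a mean of at least 50, 37.3% were called in M1 (22.4% higher, 14.9% lower) and 31.2% in M2 (18.3%, 12.9%). In complexes I, III, IV and V 7, 1, 4 and 4 members fell in M1 and 6, 1, 5 and 7 in M2. Scaled by library totals, which puts the median of all genes at -0.05 and -0.04, the counts were 2 up and 31 down in M1 and 0 and 29 in M2. Without the 2 rRNA-high libraries they were 4 up and 49 down, and 0 and 31. The M1 count of 23 was 10 without WT M1 replicate 1, 54 without WT M1 replicate 2, and 9 or 8 without PGRN knockout M1 replicate 1 or 3. The M2 count of 19 was 4 or 11 without WT M2 replicate 1 or 3, and 8, 5 or 7 without PGRN knockout M2 replicate 1, 2 or 3.

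The 2 hypoxia-linked paralogues were among the members with the largest falls. Ndufa4l2 read 393, 493 and 417 in PGRN knockout M1 libraries and 1766, 1439 and 1347 in WT M1 libraries, 3.48-fold lower, and 48.9, 70.1 and 36.8 against 322, 233 and 248 in M2, 5.2-fold lower. The groups did not overlap, and the log2 differences were -1.80 ± 0.22 (SE; adjusted p = 2.86e-05) and -2.38 ± 0.22 (SE; adjusted p = 2.59e-06) by limma. Cox4i2 read 115, 129 and 106 in PGRN knockout M1 against 303, 213 and 226 in WT M1, and 22.4, 35.4 and 19.9 against 90.5, 52.0 and 60.8 in M2. It fell by 1.07 and 1.36 on the log2 scale (limma adjusted p = 0.00632 and 0.00144), again without overlap. Both genes passed the threshold under every alternative run. The stromal marker sum was lower in the same libraries, as given above, and among the 10 stromal markers 3 fell in M1 and 5 in M2 with 0 rising by limma. Markers of the macrophages and of their state moved too. In the order PGRN M1, PGRN M2, 14-3-3ε M1 and 14-3-3ε M2, the 7 macrophage markers gave 4 rises and 1 fall, 4 and 0, 1 and 3, and 0 and 1 by limma, and the 6 M2 markers 0 rises and 4 falls, 0 and 3, 1 and 3, and 0 and 0. In the same order 25.3%, 19.4%, 21.3% and 6.69% of all genes tested were called, and 37.3%, 31.2%, 31.6% and 10.1% of those with a mean of at least 50. The marker lists are short, so their counts are given beside these shares as descriptions. The part of the marker lists in the differences was not tested. Counted in the same way, the 7 M1 markers gave 1 and 1, 0 and 0, 2 and 0, and 0 and 1, and the 8 neutrophil markers gave 0 and 1, 0 and 0, 1 and 0, and 0 and 0. The 8 T and NK cell markers gave 0 and 1, 0 and 0, 0 and 1, and 0 and 0, and the 7 erythroid markers 0 and 2, 0 and 2, 0 and 2, and 0 and 1. The 5 dendritic cell markers gave 0 and 0, 0 and 0, 3 and 0, and 1 and 0, while the 6 B and plasma cell markers and the 5 mast cell markers each gave 1 fall in PGRN knockout M1 and 0 calls elsewhere. In 14-3-3ε knockout M1 cells Ndufa4l2 was also lower, and Cox4i2 differed by -0.20 ± 0.26 (SE; limma adjusted p = 0.624). The stromal sum was higher than in WT there, and its part in the differences of either knockout was not tested.

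Muscle-type isoforms of complex IV went in opposite directions. Cox7a1, used in muscle and heart, read 38.9, 62.3 and 36.3 in M1 cells of the PGRN knockout against 111, 69.1 and 73.1 in those of WT, and 33.3, 39.1 and 36.8 against 82.5, 58.1 and 66.0 in M2. These groups did not overlap, with log2 differences of -0.88 ± 0.25 (SE; adjusted p = 0.0151) and -0.89 ± 0.25 (SE; adjusted p = 0.0174) by limma. Cox6a2, also used in muscle and heart, read 278, 125 and 304 in PGRN knockout M1 libraries and 125, 64.6 and 119 in WT M1 libraries. Replicates 1 and 3 of the knockout were above all WT libraries while replicate 2 lay within them, and the difference was 1.15 ± 0.32 (SE; adjusted p = 0.015), or 0.84 (adjusted p = 0.0715) without the 2 rRNA-high libraries. In M2 it read 112, 81.6 and 113 against 69.2, 62.3 and 67.0, a difference of 0.61 ± 0.32 (limma adjusted p = 0.213). Their ubiquitous counterparts Cox6a1 and Cox7a2 did not pass in M1 (-0.37, adjusted p = 0.113, and -0.29, adjusted p = 0.147). The 6 muscle and heart markers summed to 40.9 to 79.7 in PGRN knockout M1 and 26.8 to 149 in WT M1, overlapping ranges. Cox6b2, known from testis, fell in M1 (-1.40, adjusted p = 0.00603) from counts of 44.6, 33.1 and 27.4 to 8.18, 19.9 and 11.6.

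Of the 4 complex II members 2 rose and 0 fell in PGRN knockout M1 cells by limma, with the same counts at an unadjusted p under 0.05. Sdhb (chr4:140961203-140979193) read 5207, 4671 and 4893 in PGRN knockout M1 libraries and 4018, 2807 and 3206 in WT M1 libraries. All 3 knockout libraries were above all WT libraries, by 0.57 ± 0.10 (SE; adjusted p = 0.000792) on the log2 scale in limma's test, or 0.45 (adjusted p = 0.00364) without WT M1 replicate 2 and WT M2 replicate 3. In M2 it read 2379, 2188 and 2221 in the knockout and 2729, 2252 and 2394 in WT, overlapping groups with a difference of -0.12 ± 0.10 (adjusted p = 0.509). The difference between the 2 knockout effects was itself tested, as an interaction of genotype and stimulus, and came to 0.69 ± 0.15 (SE; adjusted p = 0.031) by limma. Sdhb was the 1 member of 81 past the threshold in that test, where 1.25% of all genes passed (0.469% higher and 0.783% lower), or 1.91% of those with a mean of at least 50 (0.709%, 1.2%). The interaction lay between 0.57 and 0.83 over the alternatives run, with adjusted p from 0.00172 to 0.113, and missed the threshold in 11 of them, among them scaling by library totals (0.64, adjusted p = 0.0667) and leaving out the 2 libraries (0.59, adjusted p = 0.0645). Among the genes of the other lists Cyc1, the cytochrome c1 subunit of complex III, had an interaction of 0.45 ± 0.10 (SE; adjusted p = 0.0437) by limma.

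Other rises in PGRN knockout M1 cells were small. Sdha rose by 0.24 ± 0.07 (SE; adjusted p = 0.013), Uqcrc2, a core subunit of complex III, by 0.44 ± 0.10 (SE; adjusted p = 0.00423), Atp5b by 0.22, Ndufa10 by 0.20 and Atp5a1 by 0.18 (limma adjusted p = 0.0297, 0.0361 and 0.0395). None of these 5 passed when scaled by library totals, where they ranged from 0.09 to 0.34. Falls in both stimuli included Atp5j2, the f subunit of the membrane part of ATP synthase (-0.58 in M1 and -0.51 in M2), and Ndufs4, a complex I subunit (-0.37 and -0.39; adjusted p = 0.0194, 0.0435, 0.0307 and 0.0305 by limma). Ndufb2 of complex I fell in M2 by 0.56 (adjusted p = 0.0313), and the hinge protein gene Uqcrh and Ndufb10 fell in M1 by 0.51 and 0.48 (adjusted p = 0.0423 and 0.0435), both with groups that overlap.

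The 14-3-3ε knockout was compared with the same WT libraries, so the 2 knockout comparisons within a stimulus share their controls. In M1 cells 1 member rose and 39 fell, 49.4% of members against 21.3% of all genes (12% higher and 9.31% lower), with a median of -0.42 against 0.07. Among genes with a mean of at least 50, 31.6% were called (17.6% higher, 14.0% lower). By complex 21 of 37, 0 of 4, 3 of 8, 9 of 15 and 6 of 17 fell in complexes I to V. The 0 in complex II is limma's, where 1 member was lower at an unadjusted p under 0.05. In M2 cells 0 rose and 9 fell by limma, 11.1% against 6.69% (3.32% higher and 3.37% lower), with a median of -0.33 against 0. Among genes with a mean of at least 50, 10.1% were called in M2 (4.78% higher, 5.31% lower). At an unadjusted p under 0.05, 0 were higher and 53 lower in M2, and voom weights gave 0 up and 20 down. In the interaction of this knockout with the stimulus 0 of 81 passed by limma and by voom, against 0.286% of all genes (0.141% higher and 0.145% lower) and 0.42% of those with a mean of at least 50 (0.214%, 0.206%), with 1 higher and 0 lower at an unadjusted p under 0.05. So the larger count in M1 is not shown to be a larger effect.

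These counts moved with single libraries and with the scaling. In M1 the number of falls was 60 without the 2 rRNA-high libraries, 11, 59 or 24 without WT M1 replicate 1, 2 or 3, 18, 7 or 16 without 14-3-3ε knockout M1 replicate 1, 2 or 3, and 19 when scaled by library totals, which puts the median of all genes at 0.13. In M2 it was 19 without the 2 rRNA-high libraries, 18 without WT M2 replicate 2, 2 without any 1 of WT M2 replicates 1 and 3 and the 3 knockout M2 libraries, and 3 when scaled by library totals, where the median of all genes was 0.11. The members' median stayed below 0 in each of these.

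Leading the falls in M1, aside from the near copies described below, were Ndufa4l2 and accessory subunits of complex I. Ndufa4l2 read 701, 692 and 1059 in 14-3-3ε knockout M1 and 1766, 1439 and 1347 in WT M1, no overlap, a difference of -0.91 ± 0.22 (SE; adjusted p = 0.0105) by limma, while in M2 it read 188, 155 and 234 against 322, 233 and 248 (-0.48, adjusted p = 0.207). Ndufa3, a small membrane subunit of complex I, read 1494, 1411 and 1279 in 14-3-3ε knockout M1 and 3487, 1764 and 2347 in WT M1, and 1085, 1131 and 1000.4 against 1843, 1467 and 1622 in M2. It fell without overlap in both stimuli, by 0.81 and 0.61 on the log2 scale (limma adjusted p = 0.00412 and 0.038). Atp5j2 (-0.71), Ndufa5 (-0.70) and Ndufb10 (-0.69) also fell in M1 (limma adjusted p = 0.00919, 0.0158 and 0.00877). In complex IV Cox5a fell by 0.61 and Cox4i1 by 0.43 in M1 (limma adjusted p = 0.0138 and 0.043).

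In M2 the largest falls were those of Atp5g2 and Ndufs5, which have near copies and are described below, followed by Cox7c and Ndufa3. The falls under complex IV by name, of which Cox7c and Cox7a2l have near copies too, were Cox7c (-0.91, adjusted p = 0.0119), Cox7a2l (-0.52, adjusted p = 0.0355), Cox7a2 (-0.49, adjusted p = 0.0471) and Cox7b (-0.36, adjusted p = 0.0462), with Ndufa7 and Ndufb9 of complex I at -0.44 and -0.37 (limma adjusted p = 0.0319 and 0.0428). Scaled by library totals, Ndufa3, Cox7a2l, Cox7a2, Cox7b, Ndufa7 and Ndufb9 did not pass in M2, and Cox4i1 did not pass in M1 (-0.35, adjusted p = 0.0928). Atp5b was the only rise, in M1: 16975.5, 16998 and 16397 in the knockout against 13262, 14496 and 15751 in WT, 0.21 ± 0.07 (SE; adjusted p = 0.0391) by limma, all 3 knockout libraries above the WT libraries. It lost the threshold when any 1 of 4 M1 libraries was left out, WT M1 replicate 1 or a knockout library. Sdhb, higher in the PGRN knockout, read 2766, 2790.5 and 2771 in 14-3-3ε knockout M1 and did not pass (-0.25, adjusted p = 0.0962).

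Several members share stretches of sequence with another gene in the table, and a read from such a stretch cannot be assigned to 1 of the 2 genes. Of the 84 members 19 shared at least 10% of their 50-base stretches with another gene of the GENCODE M21 transcripts, and for 17 of them that gene is in the table. The other two are Ndufb9 and Cox6a1, whose near copies were not analysed here. Ndufs5, the intermembrane-space subunit of complex I with the lowest p in both 14-3-3ε knockout comparisons, shares 31.1% with BC002163, a copy on chromosome 16 whose 319 bases differ from it at 2. The coding stretch that holds both differences is shown with the differing bases in capitals, since within this stretch only reads over them tell the genes apart.
Ndufs5: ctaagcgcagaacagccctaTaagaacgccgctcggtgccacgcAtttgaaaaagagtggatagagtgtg
BC002163: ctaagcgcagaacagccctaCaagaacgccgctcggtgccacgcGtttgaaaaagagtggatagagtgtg
Ndufs5 read 609, 676 and 476 in 14-3-3ε knockout M1 and 1717, 1073 and 1399 in WT M1, and 435, 494 and 429 against 1268, 1021 and 1074 in M2. BC002163 read 493, 397 and 617 in 14-3-3ε knockout M1 and 147, 101 and 85.3 in WT M1, and 389, 391 and 516 against 116, 102 and 90.7 in M2. The member was lower and the copy higher in all 6 knockout libraries than in all WT libraries. Alone, Ndufs5 had log2 differences of -1.24 ± 0.15 and -1.30 ± 0.15 (SE; limma adjusted p = 7.45e-05 and 5.92e-05). Summed with the copy, the differences were -0.44 ± 0.13 and -0.46 ± 0.13 (limma adjusted p = 0.0225 and 0.0399). In PGRN knockout libraries the copy read 90, 99.6 and 78.1 in M1 and 118, 109 and 129 in M2, ranges that overlap those of WT. Whether the genotypes differ in strain background at Ndufs5 or its copy, or in library preparation, was not tested. The levels of Ndufs5 and its copy are therefore uncertain.

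Cox7a2l (chr17:83501918-83517330), the factor that joins complexes III and IV, has a processed copy, Gm6969 on chromosome 12, that shares 17.7% of its 50-base stretches. The copy carries bases that the Cox7a2l transcript lacks, shown in capitals together with the base of Cox7a2l that they replace. A short deletion in Cox7a2l is known to differ between mouse strains. All samples are labelled C57BL/6, and whether the genotypes or libraries differ in strain background at this gene, or in library preparation, was not tested, so the levels of Cox7a2l and its copy are uncertain.
Cox7a2l: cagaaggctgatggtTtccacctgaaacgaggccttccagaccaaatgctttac
Gm6969: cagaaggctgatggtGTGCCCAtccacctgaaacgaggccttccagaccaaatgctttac
Gm6969 read 360.2, 223 and 357 in 14-3-3ε knockout M1 and 361, 237 and 358 in 14-3-3ε knockout M2, against 8.18, 4.98 and 1.86 in M1 cells and 32.6, 34.7 and 29.1 in M2 cells of the PGRN knockout. In WT it read 8.92, 179 and 0 in M1 and 3.99, 13.3 and 272 in M2. The 2 WT libraries with high values, WT M1 replicate 2 and WT M2 replicate 3, are the rRNA-high ones. Cox7a2l itself read 2690.1, 2712 and 2517 in 14-3-3ε knockout M1 against 4949.7, 2831 and 3776 in WT M1, and 2123, 2351 and 2226 against 3659, 2974 and 3024 in M2. Its differences of -0.51 ± 0.14 and -0.52 ± 0.14 became -0.38 ± 0.13 (adjusted p = 0.043) and -0.37 ± 0.13 (adjusted p = 0.0871) when summed with the copy, by limma.

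**Figure D3:**
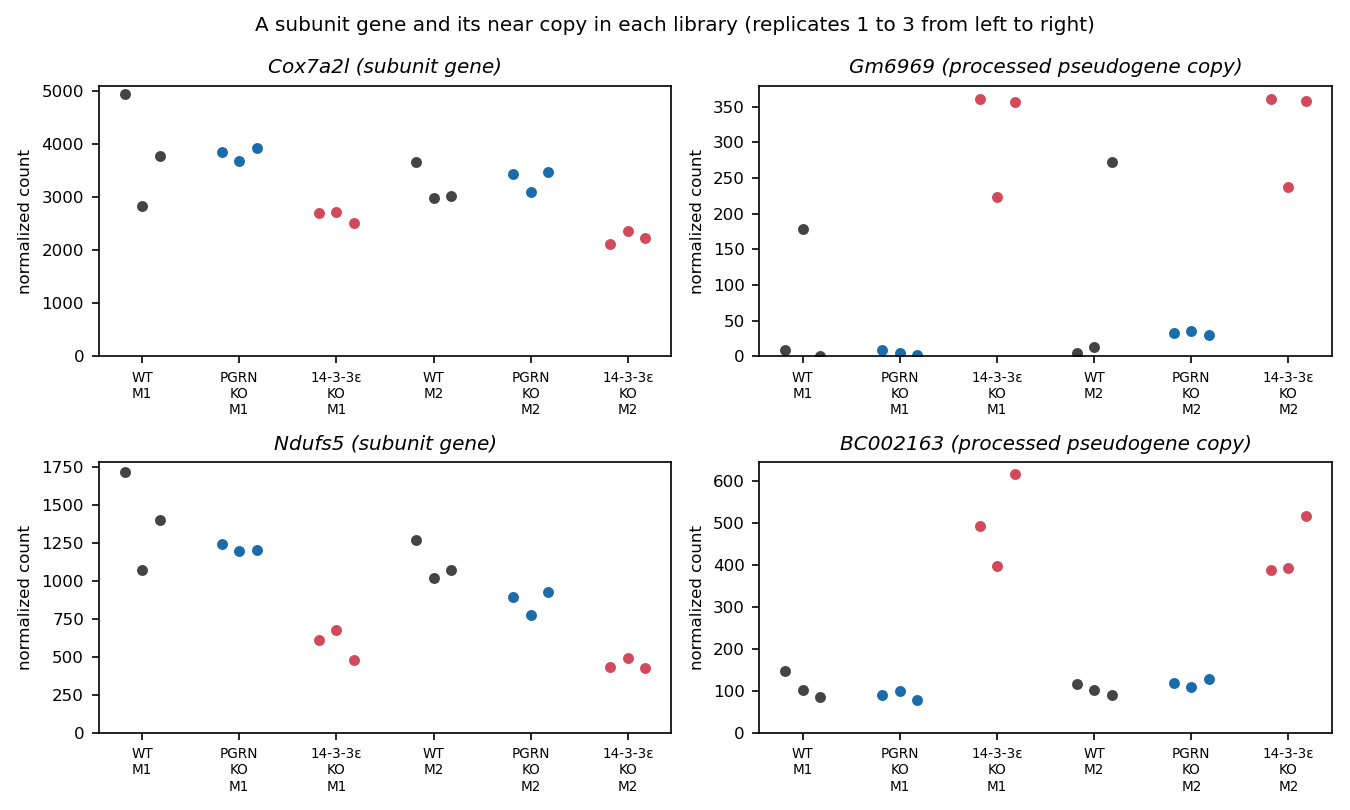
Normalized counts per library of Cox7a2l with its copy Gm6969 and of Ndufs5 with its copy BC002163 in the 6 groups. Gm6969 is at 223 to 361 in the 6 libraries of the 14-3-3ε knockout and in WT it is high in WT M1 replicate 2 and WT M2 replicate 3, and BC002163 is at 389 to 617 in the 14-3-3ε knockout and at 147 or less in the other 12 libraries.

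For Atp5g2 and Atp5l a copy held more reads than the member. Atp5g2 read 539.6, 463 and 274 in WT M1 and 333, 299 and 891 in WT M2, while its processed copy Gm10175 on chromosome 7, which shares 87.4% of its 50-base stretches, read 2091 to 4081 in the 18 libraries. A second copy, Gm10231 on chromosome 17, read 506 in WT M1 replicate 2 and 789.5 in WT M2 replicate 3, and at most 143 elsewhere. The falls of Atp5g2 alone (-1.42 and -1.25 in the PGRN knockout in M1 and M2, -1.16 and -1.32 in the 14-3-3ε knockout; limma adjusted p = 0.00958, 0.0238, 0.0347 and 0.0413) became -0.28, -0.25, -0.32 and -0.32 for the sum (adjusted p = 0.0711, 0.126, 0.0471 and 0.092). Without the 2 rRNA-high libraries Atp5g2 alone did not pass in M2 in either knockout (-0.75 and -0.83).

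Atp5l, the g subunit of ATP synthase, had the largest fall of all members in PGRN knockout M1 cells (-2.15 ± 0.72 (SE; adjusted p = 0.0398) by limma). It is named although its mean was under 50, which the rule for named genes does not cover. It read 8.18, 22.4 and 19.1 in the knockout against 58.0, 144 and 42.7 in WT M1, while its copy Gm10221 read 2509 to 4932, and the sum of Atp5l and its 5 copies differed by -0.48 ± 0.14 (adjusted p = 0.0184). Cox7c, a small complex IV subunit, fell by 0.82 in PGRN knockout M2 and by 0.72 and 0.91 in the 14-3-3ε knockout alone, and by 0.44, 0.53 and 0.56 summed with its copies (limma adjusted p = 0.0456, 0.0185 and 0.0317 for the sums). Ndufa12, a complex I subunit that fell in the PGRN knockout alone (-0.62 and -0.63), differed by -0.16 and -0.13 (adjusted p = 0.274 and 0.435 by limma) when summed with Gm15920. With all 17 members summed with their copies, the counts past the threshold were 21, 18, 40 and 7 for the 4 knockout comparisons in the order PGRN M1, PGRN M2, 14-3-3ε M1 and 14-3-3ε M2.

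Subunit transcripts are short, with a median of 745 bases over the 81 members tested. Log2 differences went with transcript length in the 79 members with a mean of at least 50 and in other genes alike. For M1 against M2 Spearman's rho across genes was -0.35, -0.31 and -0.40 for the members in WT, PGRN knockout and 14-3-3ε knockout cells and -0.25, -0.31 and -0.22 for other genes, with longer transcripts lower in M1. For knockout against WT it was 0.50, 0.46, 0.53 and 0.54 for the members in the order PGRN M1, PGRN M2, 14-3-3ε M1 and 14-3-3ε M2 and 0.27, 0.38, 0.53 and 0.54 for 11370 other genes of the same minimum. Genes are not independent replicates, and the points share libraries, so these are descriptions. For the 14-3-3ε knockout in M1 the other genes had a median difference of -0.40 at 500 bases or less and of 0.29 above 4000 bases, and the members a median of -0.49 at 500 bases or less. Set against the median of other genes in the same length class, the members' median difference was -0.01 and -0.06 in the PGRN knockout and -0.09 and -0.07 in the 14-3-3ε knockout in M1 and M2. Counted against that class median, 41 members were below and 38 above in PGRN knockout M1, 55 and 24 in PGRN knockout M2, 58 and 21 in 14-3-3ε knockout M1 and 56 and 23 in 14-3-3ε knockout M2. Sdhb, at 1142 bases, and Ndufa4l2, at 934, are not among the shortest members.

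**Figure D4:**
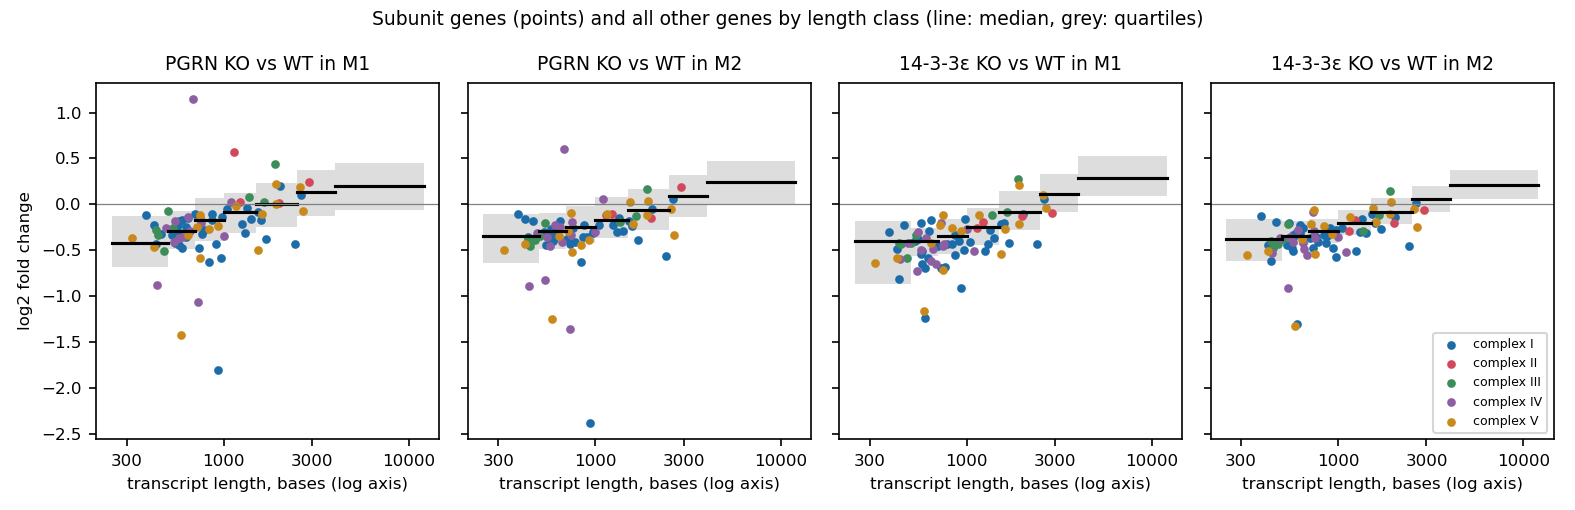
Log2 difference between knockout and WT against transcript length in bases (log axis) for the members (points) in the 4 knockout comparisons, with the median (line) and quartiles (grey) of the other genes in each length class. In all 4 panels the line is higher at the longest than at the shortest class. More members lie below the line than above it, 41 and 38 in PGRN knockout M1, 55 and 24 in PGRN knockout M2, 58 and 21 in 14-3-3ε knockout M1 and 56 and 23 in 14-3-3ε knockout M2.

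The libraries in which the members were highest were WT libraries. Averaged over the 81 tested members, the log2 level of M1 cells was 10.96, 10.39 and 10.61 for WT, 10.36, 10.38 and 10.39 for the PGRN knockout and 10.28, 10.20 and 10.25 for the 14-3-3ε knockout. In M2 cells it was 10.63, 10.34 and 10.53 in WT, 10.19, 10.11 and 10.17 in the PGRN knockout and 10.10, 10.19 and 10.12 in the 14-3-3ε knockout. The 3 WT libraries lay further apart than those of either knockout under both stimuli, and WT M1 replicate 2 lay among the PGRN knockout M1 libraries. The 5 genes outside the list most alike to this mean over the 18 libraries were Mrps21, Gtf2h5, Romo1, Ccdc124 and Sf3b6, with Pearson's r of 0.98, 0.979, 0.979, 0.977 and 0.973.

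The genes around the chain were counted in the same fit, from lists of assembly factors, electron carriers, the TCA cycle, regulators, mitochondrial ribosome, import, proton leak and glycolysis. TCA cycle genes moved with the stimulus: of 19 tested 1 rose and 14 fell in M1 relative to M2 in WT, 1 and 11 in the PGRN knockout and 1 and 11 in the 14-3-3ε knockout (medians -0.40, -0.27 and -0.27). That is 78.9%, 63.2% and 63.2% called, against 56.3%, 56.1% and 45.9% of genes with a mean of at least 50. Irg1, the itaconate enzyme, was the rise, by 9.36, 10.80 and 9.32 on the log2 scale, and Idh3a, Idh2 and Fh1, enzymes of isocitrate and fumarate, fell by 1.10, 0.88 and 0.83 in WT (limma adjusted p = 9.32e-09, 3.51e-08 and 1.54e-06). Among 18 glycolysis genes 10 rose and 1 fell in WT, 9 and 3 in the PGRN knockout and 15 and 1 in the 14-3-3ε knockout (61.1%, 66.7% and 88.9% called), led by Pfkfb3 (1.63, adjusted p = 9.67e-09 in WT) with Pfkp the fall (-1.23, adjusted p = 9.19e-10). Of 18 import and porin genes 9 fell and 1 rose in WT M1, 55.6% and so near the background of 56.3%. Hspd1, the matrix chaperonin, fell by 1.01 (limma adjusted p = 1.39e-09). Of 18 regulators of mitochondrial biogenesis 9 fell and 2 rose (61.1%), Pparg by 1.92 and Tfb2m by 0.92 down and Esrra by 0.76 up.

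Of 29 factors for complexes II to V 13 rose and 2 fell in WT M1 relative to M2, 15 and 2 in the PGRN knockout and 8 and 0 in the 14-3-3ε knockout (51.7%, 58.6% and 27.6% called). The background for the lists here is again that of genes with a mean of at least 50. Of these 56.3%, 56.1% and 45.9% were called in the same order (26.4%, 26.6% and 23.0% higher, 30.0%, 29.5% and 22.8% lower). Coa5, Surf1, Cox18 and Sco1, factors for complex IV, rose by 0.90, 1.04, 0.92 and 0.58 in WT (limma adjusted p = 2.18e-08, 4.4e-07, 8.31e-06 and 0.00025). Ndufaf3, a complex I assembly factor, rose in all 3 genotypes, by 1.31 in WT and 1.46 in the PGRN knockout, while 2 of its list of 14 rose and 3 fell in WT, 6 and 3 in the PGRN knockout and 1 and 2 in the 14-3-3ε knockout (35.7%, 64.3% and 21.4% called). Of 15 electron carriers and feeders 2 rose and 6 fell in WT (53.3% called, near the background of 56.3%). Coq2 of ubiquinone synthesis rose by 0.72, and Etfa and Etfdh, which pass electrons from fatty acid oxidation to ubiquinone, fell by 0.64 and 0.65 in WT (limma adjusted p = 1.93e-07, 1.36e-06 and 3.96e-05). Ucp2, an inner membrane carrier linked to proton leak, fell by 0.70 in WT M1.

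In the knockouts mitochondrial ribosome genes also had medians below 0. Of its 77 genes tested 2 rose and 7 fell in PGRN knockout M1, 0 and 20 in PGRN knockout M2, 2 and 32 in 14-3-3ε knockout M1 and 0 and 14 in 14-3-3ε knockout M2, with medians of -0.10, -0.26, -0.34 and -0.29, all by limma. The shares called were 11.7%, 26.0%, 44.2% and 18.2%, against 37.3%, 31.2%, 31.6% and 10.1% of genes with a mean of at least 50. Ndufaf2, a complex I assembly factor, fell in all 4 knockout comparisons (-0.52, -0.53, -0.73 and -0.62; limma adjusted p = 0.00455, 0.00514, 0.000979 and 0.00584). Among 19 TCA cycle genes 6 rose and 1 fell in PGRN knockout M1 (36.8%) and 5 rose and 0 fell in 14-3-3ε knockout M1 by limma (26.3%), shares below those backgrounds. Ucp2 rose in the PGRN knockout by 0.77 in M1 and 0.71 in M2 and in the 14-3-3ε knockout by 0.55 in M1 (limma adjusted p = 0.00204, 0.00445 and 0.0224). In the PGRN knockout Coa5 rose by 0.46 and 0.45, and in the 14-3-3ε knockout Cox18 rose by 0.70 and 0.68 and Coa3 fell by 0.72 and 0.53 in M1 and M2.

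Genes of the chain are known targets of the factors NRF1, GABPA (an ETS factor), YY1 and the estrogen-related receptors. Their motifs were searched on both strands from 250 bases before to 50 bases after the start of each gene in RefSeq promoters on GRCm38.p6, which held 66 of the 84 members by symbol. The ETS letters CCGGAA were found in 25 of the 66 members, 37.9%, against 16.7% of 27025 genes with a window of the same length. The core NRF1 motif, a run of 10 letters shown in capitals in the Sdha window, was found in 17, 25.8% against 5.19%, YY1's AAGATGGC in 9, 13.6% against 3.19%, and the estrogen-related receptor motif TCAAGGTCA in 2, 3.03% against 0.466%. At least 1 of the 4 was in 42 of the 66, a count for which no share over all genes was computed, and no motif holds another within its letters. Ndufa4l2 and Cox4i2, with the largest differences between the stimuli, are among the members without a window. The 5 windows of 100 bases below end at the base before the start and show the kinds of match, with the matched letters in capitals: Sdha, which fell in M1, with 3 NRF1 matches, Sdhd, which did not pass in any comparison with the deposited scaling, with 1 NRF1 and 1 ETS match, Ndufs3, which rose in M1, with 2 ETS matches, Atp5j with 1 YY1 and 1 ETS match, and Atp5g3, which fell in M1 in WT, with 1 for the estrogen-related receptors.
Sdha (chr13:74350241-74350340, minus strand): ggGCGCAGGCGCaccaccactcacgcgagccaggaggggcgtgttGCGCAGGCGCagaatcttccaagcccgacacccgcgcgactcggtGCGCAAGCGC
Sdhd (chr9:50603850-50603949, minus strand): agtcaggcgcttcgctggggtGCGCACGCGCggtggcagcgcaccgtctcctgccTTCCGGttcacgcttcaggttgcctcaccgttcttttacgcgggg
Ndufs3 (chr2:90904722-90904821, minus strand): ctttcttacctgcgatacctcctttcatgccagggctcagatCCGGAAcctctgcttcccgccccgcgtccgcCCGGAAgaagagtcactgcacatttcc
Atp5j (chr16:84834977-84835076, minus strand): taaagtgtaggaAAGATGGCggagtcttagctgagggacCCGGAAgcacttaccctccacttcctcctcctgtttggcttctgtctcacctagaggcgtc
Atp5g3 (chr2:73911327-73911426, minus strand): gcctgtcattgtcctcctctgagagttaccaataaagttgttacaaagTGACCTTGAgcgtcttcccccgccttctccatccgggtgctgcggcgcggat
Members with these matches are thus found among those that rose, those that fell and those that did not pass. Outside the 100 bases printed, Sdhd also held a match for the estrogen-related receptors and Atp5g3 an NRF1 match. A match is a run of letters in the window and no measure of binding.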

How the data were processed

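RNA-seq libraries of 18 macrophage samples in 6 groups of 3 were deposited as 1 table of log2 values per gene. The deposited log2 values are log2(normalized count + 1), which were turned back into normalized counts and, through each library's smallest step, into whole reads. All recovered values were whole within 0.1 reads. Per the submitters' processing notes the authors used STAR, RSEM 1.3.1 and DESeq2 and named GRCh38. The gene identifiers are those of mouse, so that build was not used for any coordinate, and roles and order of these tools are not given in the sources used here. Identifiers were matched to GENCODE M21 on GRCm38 (42425 of 43309, and all 84 members), and promoters come from RefSeq on GRCm38.p6.

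Tests covered the 21336 genes that reached a normalized count of 1 in 3 or more libraries, on log2(normalized count + 1) with limma 3.58.1 in R 4.3.3, 1 fit over the 6 groups with 12 residual degrees of freedom. Fold changes are on that scale, which understates those of low genes. Benjamini-Hochberg adjusted p-values cover all genes tested, with a threshold of 0.05. The script was tested on simulated data. Summaries used Python 3.11.15. Genes named are up to 8 of the largest rises and falls per comparison past the threshold with a mean of at least 50, the highest member of each complex, the complex II subunits, isoform groups, up to 4 genes of lowest p per list, the 5 most alike genes, Grn and Ywhae. A near copy is another gene that shares at least 10% of a member's 50-base stretches. The members and lists were chosen with earlier results of these data known. Results were recomputed under 8 other settings, among them pseudocount 0.1, other filters, voom weights, library totals and leaving out each replicate. After seeing the data 3 were added: equal depth, leaving out the 2 rRNA-high libraries, and sums with near copies.

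Same-numbered libraries deviated together in all 3 replicates only between 14-3-3ε knockout M1 and M2 cells (correlations of 0.483, 0.340 and 0.381). The numbers were taken to pair these samples, from the data and not from the labels. WT replicate 1 (0.349) and PGRN knockout replicate 2 (0.274) also did so between M1 and M2. Neutrophil marker sums followed the number there too: 6800, 2909 and 2889 in WT M1 and 6292, 2757 and 1927 in WT M2. In the PGRN knockout they were 1056, 2500 and 1466 in M1 and 767, 3074.5 and 1243 in M2. The main tests of M1 against M2 used no pairing.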

Additional observations from a re-analysis of the deposited data

Results flagged for a closer look

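The effect of the PGRN knockout on Sdhb differed between the stimuli by 0.69 ± 0.15 (SE) on the log2 scale, with an adjusted p of 0.031 in limma's test of the interaction. The adjusted p was 0.0667 scaled by library totals and 0.0645 without the 2 rRNA-high libraries, so the call is lost under both. With 1 of 81 members past the threshold against 1.25% of all genes, the share of members is no higher than the background. The effect was 0.57 ± 0.10 in M1 and -0.12 ± 0.10 in M2. All 3 PGRN knockout M1 libraries were above all other libraries of the series for this gene. The same 2 sets of WT libraries serve the 14-3-3ε knockout, where the interaction was 0.03 ± 0.15 (adjusted p = 0.969).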

How the results depend on the processing

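The number of members past the threshold moved by more than 1.5 times under several settings, and the cause was not tested. Fitting only the groups compared gave 9 in WT, 49 in PGRN knockout and 34 in 14-3-3ε knockout cells for M1 against M2. For knockout against WT it gave 4 and 38 for PGRN and 1 and 18 for 14-3-3ε in M1 and M2, and 0 for the PGRN interaction. With voom weights the counts were 11 and 31 for PGRN in M1 and M2 and 20 for 14-3-3ε in M2, and a minimum of 50 gave 15 for 14-3-3ε in M2. Library totals gave 29 for PGRN in M2, 20 and 3 for 14-3-3ε in M1 and M2, and 0 for the PGRN interaction. Equal depth, added after seeing the data, gave 14 and 2 for 14-3-3ε. Leaving out the 2 rRNA-high libraries, also added then, gave 42 for WT M1 against M2, 53 and 31 for PGRN, 62 and 19 for 14-3-3ε and 0 for the PGRN interaction.

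Leaving out 1 library at a time gave 21 to 48 for M1 against M2 in WT, 20 to 23 in PGRN knockout and 11 to 13 in 14-3-3ε knockout cells. For knockout against WT the ranges were 8 to 54 and 4 to 28 for PGRN and 7 to 61 and 2 to 18 for 14-3-3ε in M1 and M2. They were 0 to 1 for the PGRN interaction and 0 to 0 for that of 14-3-3ε. Of 87 named values 34 passed the threshold under every alternative run and 0 changed sign.

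With the replicate number as a block shared over all 6 groups, the 14-3-3ε knockout count in M2 was 17 in place of 9. Such a block also ties same-numbered libraries of different genotypes. Between 14-3-3ε knockout and WT M2 libraries these had correlations of -0.0073, -0.106 and -0.022, so the 17 does not rest on a pairing seen there. For M1 against M2 in 14-3-3ε knockout cells, where the pairing check held in all 3 replicates, the same shared block gave 7 rises and 11 falls. A block within this genotype alone was not run. Depth limits the low isoforms, whose values rest on few reads in the shallow WT libraries.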
